A study of Mus musculus musculus x M. m. domesticus and Mus musculus domesticus and Mus musculus with 12 samples.

Results

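Leydig cells, which lie between the seminiferous tubules of the testis, make testosterone from cholesterol. Luteinizing hormone acts on its receptor (*Lhcgr*), *Star* moves cholesterol into the mitochondrion, and *Cyp11a1*, with electrons from the ferredoxin *Fdx1*, cuts the side chain to give pregnenolone. *Hsd3b1* turns this into progesterone, *Cyp17a1* into an androgen, and *Hsd17b3* makes the last conversion to testosterone in adult testis. *Fdx1* also serves other mitochondrial reactions and is present in many cell types. These 7 genes were chosen by their role, with earlier results of these data known. Of them 5 (*Cyp17a1*, *Star*, *Cyp11a1*, *Hsd17b3* and *Fdx1*) were measured among 7000 genes. *Hsd3b1* and *Lhcgr* were not analysed here.

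RNA of whole testis came from 12 males killed at 60 days, 3 of each genotype, and each was hybridized to its own Affymetrix array. Crosses are named mother first. The *DxD* males came from LEWES/EiJ mothers and WSB/EiJ fathers, both *M. domesticus*, and the *MxM* males from PWK/PhJ mothers and CZECHII/EiJ fathers, both *M. musculus*. A LEWES/EiJ mother and a PWK/PhJ father gave the fertile *DxM* hybrids, and the reverse cross gave the sterile *MxD* hybrids. The other 3 genotypes were thus fertile, every male was an F1 male, and none was a parent of another genotype. All values are log2 expression after quantile normalization across the arrays. In *MxM* replicate 3, 131 genes were lower than in all 11 other males by 1 log2 unit or more, against at most 4 in any other array, and the variance within *MxM*, averaged over genes, was 0.0879 against 0.0147 in *DxD*. Each result below rests on 3 males per genotype, and values without *MxM* replicate 3 are given where a call changes. Because whole testis was used, more cells of a type and more RNA per cell cannot be told apart.

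All 5 genes had their highest mean in the sterile *MxD* males and, except for *Cyp11a1*, their second highest in the fertile *DxM* males. Relative to *MxM*, the increase in *MxD* passed the test for all 5, and relative to *DxD* it passed for *Cyp17a1*, *Hsd17b3* and *Fdx1*. Between the reciprocal hybrids no gene passed. The mean of both hybrids exceeded that of both within-species crosses in all 5 genes. *Cyp11a1* had another order, since its means were 8.90 in *DxD* and 8.75 in *DxM*, and *MxM* alone was low, with a mean of 7.56.

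**Figure D1:**
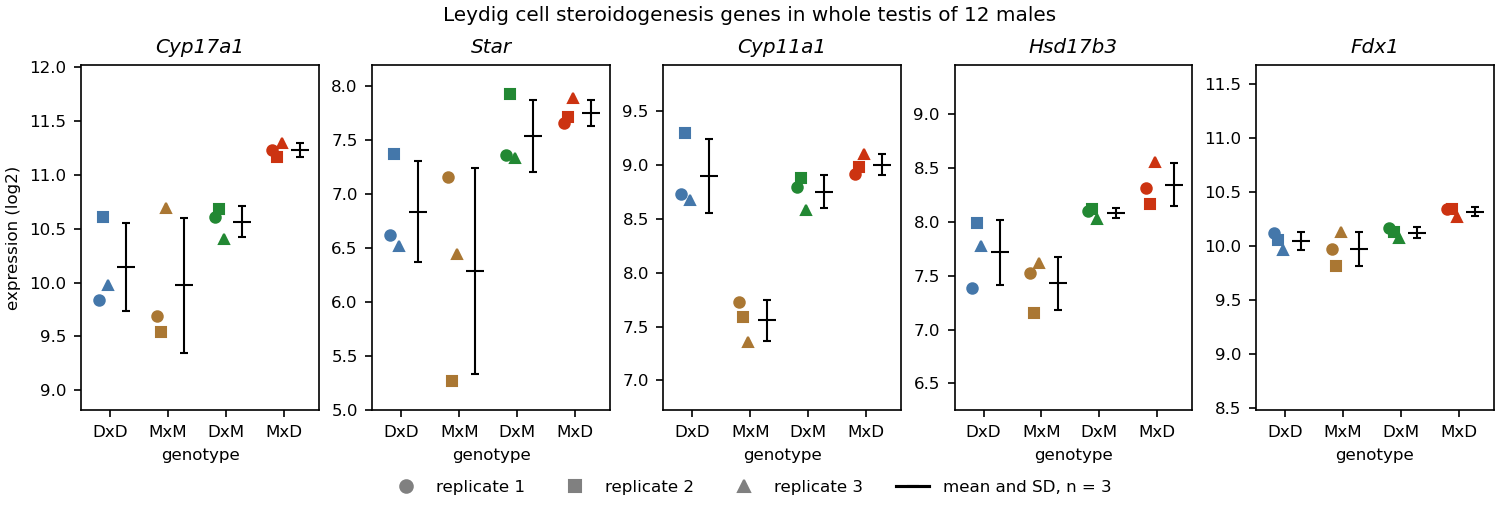
Log2 expression of each gene (vertical axis) in each of 12 males by genotype (horizontal axis), with symbols for the replicate number and the mean and SD of 3 males in black; every panel spans the same log2 range. The 3 *MxD* males lie above all fertile males in *Cyp17a1*, *Hsd17b3* and *Fdx1*, the *MxM* males lie below all others in *Cyp11a1*, and *Star* is most spread in *MxM*.

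*Cyp17a1* (ENSMUSG00000003555_at), whose enzyme carries out the hydroxylation and the side-chain cleavage that give androgens, starts at 46741676 on chromosome 19 of NCBI build 37. It measured 9.84, 10.61 and 9.97 in *DxD* replicates 1 to 3, 9.69, 9.54 and 10.69 in *MxM*, 10.61, 10.68 and 10.40 in *DxM*, and 11.23, 11.17 and 11.29 in *MxD*. Every *MxD* male was above all 9 fertile males, while the 3 fertile genotypes overlapped. *MxD* exceeded *DxD* by 1.09 (standard error 0.27, limma adjusted p = 0.0103), a 2.13-fold difference, and *MxM* by 1.26 (limma adjusted p = 0.00526). From *DxM* it differed by 0.67 (95% interval 0.08 to 1.25), which did not pass (limma adjusted p = 0.175). That last call turned on *MxM* replicate 3, the highest *MxM* male, through the spread shared by the genotypes, since without it the limma adjusted p was 0.0298. A fit of the hybrids alone gave 0.00712. Among the fertile genotypes no difference passed, but without *MxM* replicate 3 *DxM* exceeded *MxM* by 0.95 (limma adjusted p = 0.00589). The study lists *Cyp17a1* among the genes it selected as higher in these *MxD* males, with a postmeiotic cell type, so its difference here is not independent evidence.

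*Star* (ENSMUSG00000031574_at), which sets the supply of cholesterol to the first enzyme, had the largest SD of the 5 genes in *DxD*, *MxM* and *DxM*. It measured 6.62, 7.37 and 6.51 in *DxD*, 7.16, 5.26 and 6.45 in *MxM*, 7.36, 7.93 and 7.33 in *DxM*, and 7.66, 7.72 and 7.89 in *MxD*. The gene was dim, at percentiles 14.9 to 32.5 of all genes in the *DxD* arrays and 1.9 to 27.8 in *MxM*. In *DxM* it was at 31.7 to 45.1 and in *MxD* at 39.0 to 44.2. The lowest, 1.9, was *MxM* replicate 2. The *MxD* males were above all *DxD* and *MxM* males and overlapped with *DxM*, where replicate 2 was the highest of all. How many of all genes have *MxD* above *DxD* and *MxM* in this way was not counted. *MxD* exceeded *MxM* by 1.47 (standard error 0.39, limma adjusted p = 0.0158), and this call was lost without *MxD* replicate 3 (limma adjusted p = 0.0541). It was also lost in a fit of *MxD* and *MxM* alone (limma adjusted p = 0.0554). By Student's t-test the adjusted p was 0.190, and by a t-test with unequal variances 0.303. The call was kept under the other alternatives. The SD of *Star* was 0.96 in *MxM* and 0.12 in *MxD*. Without *MxM* replicate 2, the lowest male, *MxD* exceeded *MxM* by 0.95 (limma adjusted p = 0.0357) and *DxM* exceeded it by 0.74 (0.127). The increase of 0.92 over *DxD* did not pass (limma adjusted p = 0.0959), although it did without *MxM* replicate 1 (0.0368) or replicate 2 (0.0211). *DxD* exceeded *MxM* only when *MxM* replicate 1 was left out (by 0.98, limma adjusted p = 0.0422). *DxM* exceeded *MxM* by 1.25 with a limma adjusted p of 0.0488, a value at the threshold. It rose to between 0.0509 and 0.149 when any of 11 of the 12 males was left out, and to 0.0561 with the replicate number as a block, a fit in which same-numbered males are compared with each other.

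*Cyp11a1* (ENSMUSG00000032323_at), the side-chain cleavage enzyme that commits cholesterol to steroids, differed between the within-species crosses. The *MxM* males measured 7.73, 7.59 and 7.36, below all 9 other males, as holds for 6.09% of all genes. *DxD* measured 8.73, 9.30 and 8.68, *DxM* 8.80, 8.87 and 8.59, and *MxD* 8.92, 8.98 and 9.11, so that *DxD* overlapped with both hybrids. Every *MxD* male was above every *DxM* male, but the difference of 0.25 did not pass (limma adjusted p = 0.399). The share of all genes with such an order of the hybrids was not counted. *DxD* exceeded *MxM* by 1.34 (standard error 0.16, limma adjusted p = 7.1e-05), a 2.54-fold difference, *DxM* exceeded it by 1.20 (limma adjusted p = 5.6e-04) and *MxD* by 1.45 (limma adjusted p = 9.6e-05). All 3 calls held when any male was left out. The interval of the difference between *MxD* and *DxD* was -0.24 to 0.45, and that between *DxM* and *DxD* was -0.49 to 0.20. By limma no other gene of the 5 separated *DxD* from *MxM*, a contrast in which 31.9% of all genes differed and 14% were higher in *DxD*. Differences of the array's probes from the *M. musculus* sequence were not examined.

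*Hsd17b3* (ENSMUSG00000033122_at), the last enzyme of the pathway, had the least overlap between genotypes. It measured 7.39, 7.99 and 7.77 in *DxD*, 7.52, 7.15 and 7.62 in *MxM*, 8.10, 8.12 and 8.03 in *DxM*, and 8.31, 8.16 and 8.56 in *MxD*. Each *MxD* male was above each *DxM* male, and each *DxM* male was above every *DxD* and *MxM* male. The share of all genes with this full order was not counted. *MxD* exceeded *DxD* by 0.63 (standard error 0.16, limma adjusted p = 0.0125) and *MxM* by 0.91 (limma adjusted p = 0.00181). Without *DxD* replicate 1 or *MxD* replicate 3 the first of these narrowly failed (limma adjusted p of 0.0501 and 0.0569). *DxM* exceeded *MxM* by 0.65 (limma adjusted p = 0.0179), and this call was lost without *MxM* replicate 2, *DxM* replicate 1 or *DxM* replicate 2, with limma adjusted p-values from 0.0554 to 0.0697. The difference between the hybrids was 0.26 (95% interval -0.09 to 0.61, limma adjusted p = 0.39). Without *DxD* replicate 1, *DxD* also exceeded *MxM*, by 0.45 (limma adjusted p = 0.0495).

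*Fdx1* (ENSMUSG00000032051_at), the ferredoxin that passes electrons to the mitochondrial P450 enzymes, differed from *MxM* in *MxD* by less than the other 4 genes. It measured 10.12, 10.05 and 9.96 in *DxD*, 9.97, 9.81 and 10.13 in *MxM*, 10.17, 10.13 and 10.07 in *DxM*, and 10.34, 10.34 and 10.27 in *MxD*. The *MxD* males were above all fertile males by a narrow margin, and the fertile genotypes overlapped. *MxD* exceeded *DxD* by 0.27 (standard error 0.08, limma adjusted p = 0.0296) and *MxM* by 0.35 (limma adjusted p = 0.00991). The first of these calls was lost without *DxD* replicate 2 or 3 or without any 1 *MxD* male, with limma adjusted p-values from 0.0513 to 0.111. The difference between the hybrids was 0.19 (95% interval 0.01 to 0.38, limma adjusted p = 0.206). Absolute differences at least as large as those of *Fdx1* were found in 37.0% of all genes between *MxD* and *DxD* and in 26.4% between *MxD* and *MxM*, against 0.943% and 0.9% for *Cyp17a1*.

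**Figure D2:**
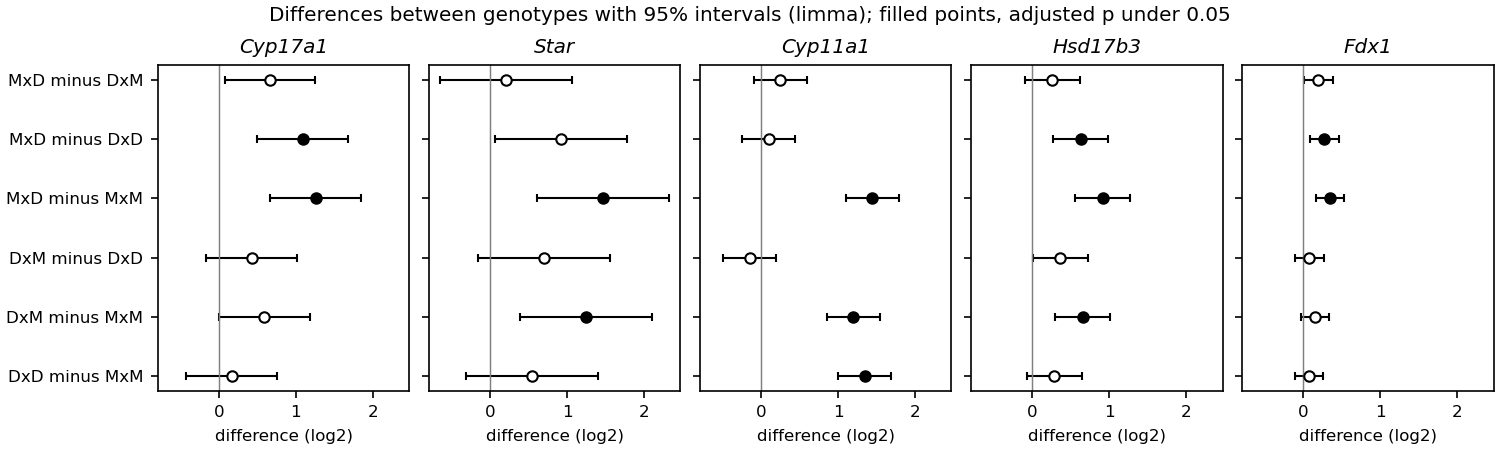
Log2 difference (horizontal axis) between each pair of genotypes (vertical axis) for each gene, with its 95% interval from limma, and filled points where the adjusted p is under 0.05. All 5 points are filled for *MxD* minus *MxM*, 3 for *MxD* minus *DxD* and for *DxM* minus *MxM*, 1 for *DxD* minus *MxM* and none for *MxD* minus *DxM* or *DxM* minus *DxD*.

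Counted over the genes, 5 of 5 were called higher in *MxD* than in *MxM* (limma, Benjamini-Hochberg adjusted p under 0.05), where 30.3% of all genes differed and 13% were higher in *MxD*. Between *MxD* and *DxD* 3 of 5 were higher, where 31% of all genes differed and 15.9% were higher. Between *DxM* and *MxM* 3 of 5 were higher, where 16.9% of all genes differed and 6.51% were higher. No gene was called between *DxM* and *DxD*, where 12.1% of all genes were, with 1 gene (*Hsd17b3*) at an unadjusted limma p under 0.05, as for 25.5% of all genes. None was called between *MxD* and *DxM* either, where 6.5% of all genes were and 3% were higher in *MxD*. In that comparison *Cyp17a1* and *Fdx1* had an unadjusted limma p under 0.05, as did 21.8% of all genes, and their p-values were 0.0303 and 0.0407. In 3 of the 5 genes every *MxD* male was above every fertile male, as in 5.47% of all genes. The methods name Student's t-test. At an unadjusted threshold of 5% it called 4 of the 5 between *MxD* and *DxD*, against 40.5% of all genes. It called 4 between *MxD* and *MxM*, against 28.6%, and *Cyp17a1* and *Fdx1* between *MxD* and *DxM*, against 18.5%. With unequal variances, 3 of the 5 passed that threshold between *MxD* and *DxD*, against 34.7% of all genes. Between *MxD* and *MxM* only *Cyp11a1* and *Hsd17b3* then passed, against 24.1%. *Cyp17a1* and *Fdx1* again passed between *MxD* and *DxM*, against 15%. For *DxD* and *MxM*, and for *MxD* and *DxM*, the all-gene counts with unequal variances were nearer those of the study. After adjustment Student's t-test called 2, 1 and 0 of the 5 in the same order, against 22.7%, 6% and 0.129% of all genes. Without the replicate 1 arrays of all genotypes, limma called 0 of the 5 in *MxD* against *DxD*, where 25.6% of all genes were, and 3 of the 5 in *MxD* against *MxM*, where 24.8% were. The counts include *Cyp17a1*, which the study had selected as higher in these *MxD* males. The comparisons with *MxD* share the same 3 males and are not independent of each other. Their median difference over the 5 genes was 1.26 from *MxM*, 0.63 from *DxD* and 0.25 from *DxM*, while the medians over all genes were -0.01, -0.01 and -4.2e-04.

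Both hybrids were next set against both within-species crosses. The contrast asks whether the difference between males of *M. musculus* and *M. domesticus* mothers depends on the species of the father. With *M. domesticus* fathers, males of *M. musculus* mothers had the higher mean of *Cyp17a1* (*MxD* minus *DxD*, 1.09), and with *M. musculus* fathers they had the lower mean (*MxM* minus *DxM*, -0.59). The maternal differences thus differed by 1.68 (standard error 0.38, limma adjusted p = 0.0100), which equals a mean of both hybrids 0.84 above that of both within-species crosses. The contrast passed for all 5 genes, with the mean of the hybrids higher, where 21.2% of all genes passed and 9.36% had a higher mean of the hybrids. The mean of the hybrids was 1.09 above that of the within-species crosses for *Star* (limma adjusted p = 0.0176), 0.65 for *Cyp11a1* (0.00228), 0.64 for *Hsd17b3* (0.00287) and 0.21 for *Fdx1* (0.0270). For *Cyp11a1*, however, *DxM* (mean 8.75) was below *DxD* (8.90), and *MxM* alone was low (7.56). The call for *Fdx1* was lost when any of 7 of the 12 males was left out (limma adjusted p from 0.0513 to 0.0722), and the other 4 held in each case. Without the replicate 1 arrays of all genotypes 3 of the 5 passed, where 14.1% of all genes did, with limma adjusted p-values of 0.12 for *Cyp17a1* and 0.123 for *Fdx1*, and with array quality weights that of *Cyp11a1* was 0.0645. *Hsd17b3* was the 1 gene of the 5 in which all 6 hybrid males were above all 6 within-species males, as in 1.41% of all genes. The strains of the fathers and mothers differ between the crosses, so species and strain cannot be told apart here.

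Taken singly, the *MxD* hybrid was above the mean of *DxD* and *MxM* in all 5 genes by limma, by 1.17 for *Cyp17a1*, 1.19 for *Star*, 0.77 for *Cyp11a1*, 0.77 for *Hsd17b3* and 0.31 for *Fdx1*, with adjusted p-values from 0.00202 to 0.0226. Of all genes 28.2% differed from that mean in *MxD*, and 13.1% of all genes were above it. The fertile *DxM* hybrid was above it by 0.51, 0.98, 0.52, 0.51 and 0.11 in the same order, and none of these passed by limma (adjusted p from 0.0524 for *Cyp11a1* to 0.459 for *Fdx1*), where 4.64% of all genes did. *Star*, *Cyp11a1* and *Hsd17b3* had an unadjusted limma p under 0.05 there, as did 18.5% of all genes. When the within-species mean was taken on the linear scale instead, *Cyp11a1* was still 0.35 above it in *DxM* and 0.60 above it in *MxD*. These last 2 values are descriptions without a test.

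**Figure D3:**
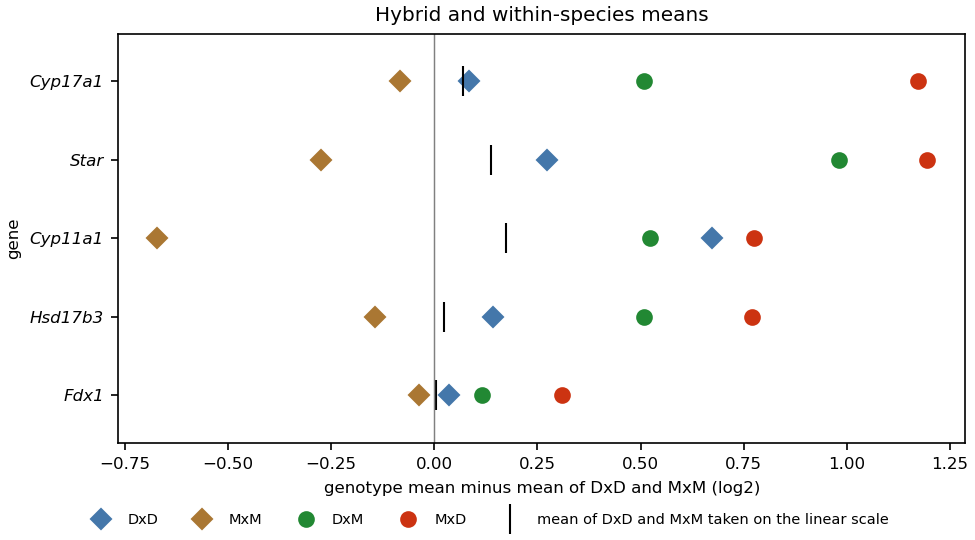
Genotype means of each gene (vertical axis) relative to the mean of *DxD* and *MxM* on the log2 scale (horizontal axis); diamonds are within-species crosses, circles are hybrids, and the black tick is the within-species mean taken on the linear scale. Both hybrids lie to the right of the tick in every gene, from 0.11 for *DxM* in *Fdx1* to 1.10 for *MxD* in *Cyp17a1*, and *DxM* lies below *DxD* in *Cyp11a1* only.

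The spread between males is given next as a description, without a test. In *DxD* the SD of 3 males was 0.41 for *Cyp17a1*, 0.47 for *Star*, 0.34 for *Cyp11a1* and 0.30 for *Hsd17b3*, and each was larger than the SD of 98.4% to 99.9% of all genes in that genotype, whose median was 0.08. In *MxD* the SDs were 0.06, 0.12, 0.09 and 0.20 in the same order, and the median of all genes was 0.12. In *DxM* the SD of *Star* was 0.34, larger than in 98.3% of all genes, and those of *Cyp17a1*, *Cyp11a1* and *Hsd17b3* were 0.14, 0.15 and 0.05. In *MxM* the SD of *Star* was 0.96, larger than in 98.5% of all genes, and that of *Cyp17a1* was 0.63, larger than in 96.7%. Those of *Cyp11a1* and *Hsd17b3* there, 0.19 and 0.25, were larger than in 64.9% and 79.3%. *Fdx1* was near the median of all genes in *DxD* and *MxM*, with SDs of 0.08 and 0.16. These shares compare genes of all expression levels, and *Star* was dim in *DxD* and *MxM*.

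Within *DxD*, replicate 2 was the highest male in *Cyp17a1*, *Star*, *Cyp11a1* and *Hsd17b3*, by 0.46, 0.54, 0.40 and 0.27 above the *DxD* mean, and was at 0.01 from it in *Fdx1*. In *DxM* replicate 2 was again highest in those 4 genes, and in *MxD* replicate 3 was. Thus 1 male led in these 4 genes in 3 of the 4 genotypes. *Fdx1* went otherwise, highest in replicate 1 of *DxD* and *DxM* (0.08 and 0.04) and lowest in *MxD* replicate 3 (-0.05). With *Fdx1* included, no male led in every gene of any genotype. How often 1 male leads in other sets of 4 genes was not counted. In *MxM* no male led in the 4 genes. *Star* and *Cyp11a1* were highest there in replicate 1, at 0.87 and 0.17 above the mean. *Cyp17a1*, *Hsd17b3* and *Fdx1* were highest in *MxM* replicate 3, at 0.72, 0.19 and 0.16.

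**Figure D4:**
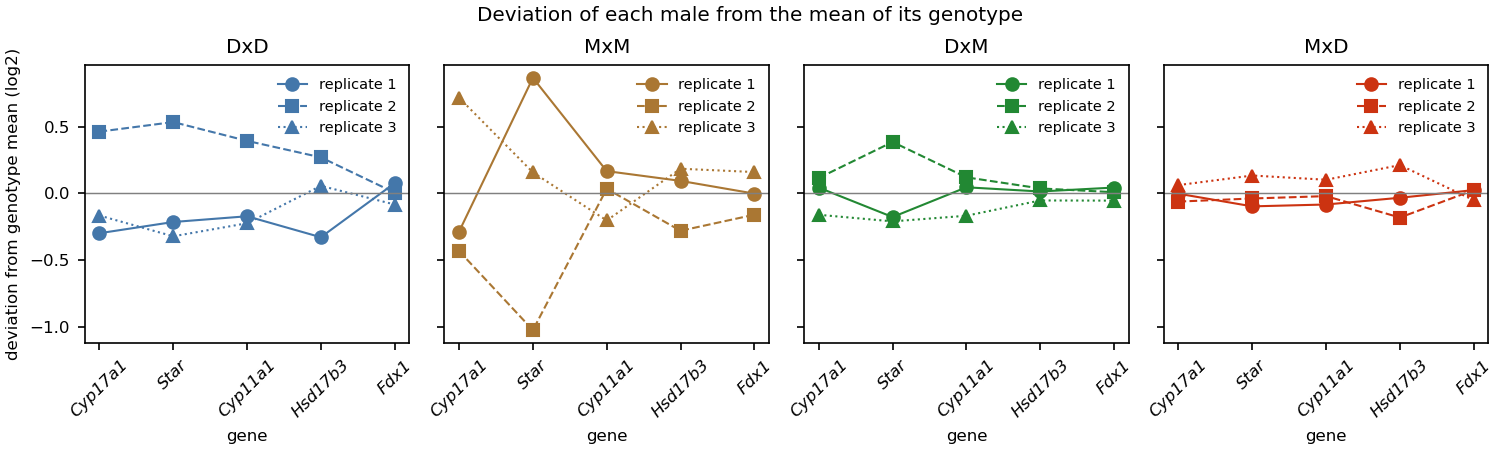
Deviation of each male from the mean of its genotype (vertical axis, log2) for each gene (horizontal axis), 1 panel per genotype and 1 line per male. The line of *DxD* replicate 2 runs above the other *DxD* males in the first 4 genes, while the *MxM* lines cross.

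Over the 12 males, with each value taken as the deviation from its genotype mean, 9 of 10 gene pairs were positively correlated and the median Pearson r was 0.45. The share of positive pairs and the median r among all genes were not counted, so this count is a description only. The highest values were 0.71 for *Cyp17a1* and *Hsd17b3* (exact permutation test within genotypes, two-sided, p = 0.11; Spearman's rho 0.69, exact p = 0.0802) and 0.66 for *Star* and *Hsd17b3* (exact p = 0.088; rho 0.69, exact p = 0.0378). The lowest was -0.16, for *Cyp11a1* and *Fdx1* (exact p = 0.654; rho -0.16, exact p = 0.69). None of the 10 pairs passed Benjamini-Hochberg adjustment over the pairs (adjusted p of at least 0.532 for r and 0.342 for rho), and none had an unadjusted p under 0.05 for r. The test has 1296 rearrangements, so the design could have given a p as small as 7.7e-04. Without *DxD* replicate 2 and *MxM* replicate 3, the males farthest from the median of *Cyp17a1*, its r with *Hsd17b3* was 0.60. Without *MxM* replicates 1 and 2, the males farthest in *Star*, its r was 0.62 with *Hsd17b3* and rose from 0.51 to 0.79 with *Cyp11a1*. Over all genes, the deviations of same-numbered males of different genotypes had r between 0.15 and 0.76 in pairs with *MxD* and between -0.05 and 0.75 in the other pairs. With the means of the replicate numbers removed as well, the median r of the 10 pairs was 0.58. As a description, 0.50% of all genes had an r with *Star* as high as that of *Hsd17b3*, and 2.01% had one with *Hsd17b3* as high as that of *Star*. For *Star* and *Cyp11a1* these shares were 2.16% and 1.20%. They were less even for *Cyp17a1* and *Star*, at 26.7% with *Cyp17a1* and 4.07% with *Star*, and for *Fdx1* and *Star*, at 17.6% with *Fdx1* and 3.39% with *Star*. *Cyp17a1* and *Cyp11a1* had an r of 0.17, reached by 53.7% of all genes with *Cyp17a1* and 20.6% with *Cyp11a1*.

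By likeness to *Cyp17a1* over the 12 males (Pearson r of log2 values, genotype differences included), *Hsd17b3* was at rank 21 and *Fdx1* at rank 22 of the other genes, both with r = 0.89. *Star* was at rank 336 (r = 0.75) and *Cyp11a1* at rank 1018 (r = 0.55). Within genotypes the ranks were lower, at 272 for *Hsd17b3*, 548 for *Fdx1*, 1872 for *Star* and 3759 for *Cyp11a1*. The most alike was ENSMUSG00000031700, with r = 0.98, which was also second within genotypes (r = 0.95). The study's tables pair 45 identifiers with gene names, and none of these is among the 5 genes most like *Cyp17a1* by either measure or in the lists drawn up. The lists drawn up of other steroid pathway genes and of cell type markers could not be matched to identifiers and were not used, so neither the Leydig cells nor other cell types were checked by named markers.

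Cell classes were available for 1102 genes in the part of the study's gene table used here. They name the purified testis cell in which a gene is most induced, and the somatic class stands for Sertoli cells, not Leydig cells. Averaged over the 142 somatic genes, the deviation of a male from the median male was 0.06 to 0.08 in *MxD*, 0.10 in *MxM* replicate 3 and -0.09 to 0.01 in the other 8 fertile males. The 269 postmeiotic genes were at -0.24 to -0.13 in *MxD* and 0.01 to 0.08 in fertile males. The median difference between *MxD* and *DxD* was 0.17 for somatic, 0.26 for mitotic and -0.22 for postmeiotic genes, beside 0.63 for the 5 steroidogenic genes. Values were also taken relative to the somatic mean of each array, which lowers every difference between *MxD* and *DxD* by 0.13 on the log2 scale. On that scale 5 of 5 differed by limma between *MxD* and *MxM*, where 33.2% of all genes did, and 2 of 5 between *MxD* and *DxD*, where 37.9% did and *Fdx1* had an adjusted p of 0.161. All 5 remained called in the comparison of the hybrids with the within-species crosses, where 24.8% of all genes were. The part of other cell types in these differences was otherwise not tested.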

How the data were processed

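Testis RNA of 12 males was hybridized to Affymetrix mouse genome arrays. Probe signals were combined by Ensembl gene with PLIER, which gives well-performing probes more weight, under BRAINARRAY probe definitions (version 11). The authors retained genes with a detectable signal in all males and applied quantile normalization. The deposited log2 values of 7000 genes were used unchanged. Genotypes and replicate numbers came from the sample titles. Precision is limited by the number of arrays. All genes were fitted with limma 3.58.1 (R 4.3.3), 1 coefficient per genotype and a spread shared by the genotypes. Tests were two-sided and adjusted over all genes by Benjamini-Hochberg at 5%. On simulated data (7000 genes, 200 changed between *MxD* and the rest) 92% of changes of 1 log2 unit and 71% of changes of 0.5 were recovered between *MxD* and *DxM*. The simulated males were independent, and each gene had the same spread in every genotype, unlike the data. The rates are averages over genes and do not give the power for the 5 measured genes. Within-genotype correlations were tested by exact permutation of males within genotypes (Python 3.11.15).

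The members and lists were chosen with earlier results of these data known. Text was to name the 5 measured genes, at most 4 genes per pathway or marker list, and the 5 genes most like *Cyp17a1* over all males and within genotypes. Those lists could not be matched to identifiers, and only the most alike gene is named. Same-numbered males deviated together in each contrast with *MxD* (r over all genes from 0.15 to 0.76), so the numbers count as pairing them, although no source says what they mark. In other contrasts r fell to -0.05.

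Alternatives were the methods' Student's t-test, a t-test with unequal variances, an unadjusted threshold, the replicate number as a block, fits restricted to the genotypes compared, a trend and robust prior, array quality weights, removal of the dimmest 25% of genes, and each male left out. Added after seeing the data were values relative to the somatic gene mean, removal of all replicate 1 arrays, each hybrid against the within-species mean, and correlations without *Fdx1*.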

Additional observations from a re-analysis of the deposited data

Results flagged for a closer look

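By limma, in all 5 genes the difference between males of *M. musculus* and *M. domesticus* mothers differed between *M. domesticus* and *M. musculus* fathers. The difference (*M. musculus* minus *M. domesticus* mothers) was positive with *M. domesticus* and negative with *M. musculus* fathers in all 5 genes. These values were 1.09 and -0.59 for *Cyp17a1*, 0.92 and -1.25 for *Star*, 0.10 and -1.20 for *Cyp11a1*, 0.63 and -0.65 for *Hsd17b3*, and 0.27 and -0.15 for *Fdx1*. In size the difference was larger with *M. musculus* fathers for *Star*, *Cyp11a1* and *Hsd17b3*. The first value minus the second was 1.68 for *Cyp17a1*, 2.17 for *Star*, 1.30 for *Cyp11a1*, 1.28 for *Hsd17b3* and 0.42 for *Fdx1* on the log2 scale. The share of all genes in which this contrast was positive and past the same threshold was 9.36%. The call for *Fdx1* was lost when any of 7 of the 12 males was left out. Without the replicate 1 arrays *Cyp17a1* and *Fdx1* did not pass, and with array quality weights *Cyp11a1* did not. The strains of the parents also differ between the crosses, so species and strain cannot be told apart.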

How the results depend on the processing

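The direction of each difference between genotypes was kept under every alternative, except that 7 values of differences that were not called turned. *Cyp11a1* between *MxD* and *DxD* was at -0.13 with array quality weights, -0.025 relative to the somatic mean and -0.010 without *DxD* replicate 3 (up to 0.30 without another male), and between *DxM* and *DxD* at 0.049 without *DxD* replicate 2 (down to -0.26 without another male, and -0.43 with array quality weights). *Cyp17a1* between *DxD* and *MxM* was at -0.066 without *DxD* replicate 2 and -0.050 without *MxM* replicate 2 (up to 0.53 without replicate 3), and *Fdx1* at -0.0064 without *MxM* replicate 2 (up to 0.15). The number of called genes changed more. After adjustment, Student's t-test called 1 between *MxD* and *MxM* and 1 between *DxM* and *MxM*, against 420 and 179 over all genes. A t-test with unequal variances called 0 in each pair of genotypes, against 0 over all genes in *MxD* minus *DxM*, 654 in *MxD* minus *DxD*, 3 between *MxD* and *MxM*, 468 between *DxD* and *MxM*, 170 between *DxM* and *DxD* and 4 between *DxM* and *MxM*. Fits of only the genotypes compared called 1 for *MxD* against *DxM* and 4 against *DxD*, with *Star* added. Against *MxM* they called 3, with *Star* and *Fdx1* lost. Over all genes these fits called 349, 2505 and 1048. At an unadjusted p under 0.05, 2 genes differed between *MxD* and *DxM* and 1 between *DxM* and *DxD*, beside 1528 and 1785 over all genes. Array quality weights called 2 between *DxD* and *MxM*, beside 2356 over all genes. Without all replicate 1 arrays, 0 genes were called between *MxD* and *DxD*, 3 between *MxD* and *MxM*, and 3 in the contrast of hybrids with within-species crosses. Over all genes these were 1793, 1738 and 990. With single males left out, the counts ran from 0 to 1 for *MxD* and *DxM*, 1 to 4 for *MxD* and *DxD*, 4 to 5 for *MxD* and *MxM*, 1 to 2 for *DxD* and *MxM*, 1 to 3 for *DxM* and *MxM*, 0 throughout for *DxM* and *DxD*, and 4 to 5 for the hybrids. The cause was not tested. Under the replicate block, the calls were 0, 3 and 5 for *MxD* against *DxM*, *DxD* and *MxM* as before, and the only call lost was that of *Star* between *DxM* and *MxM* (limma adjusted p = 0.0561). Over all genes the block moved the calls between *MxD* and *DxM* from 455 to 1201, between *DxM* and *DxD* from 844 to 1584, between *DxM* and *MxM* from 1181 to 1918 and for the hybrids from 1487 to 2497. It also moved them from 2170 to 3217 between *MxD* and *DxD* and from 2122 to 3076 between *MxD* and *MxM*. Between *DxD* and *MxM* they moved from 2230 to 3109. The median within-genotype correlation of 0.45 was 0.58 with the replicate block, 0.73 without replicate 1 arrays and 0.64 without *MxM*, and ran from 0.31 to 0.61 with 1 male left out. Values relative to named Sertoli cell markers, and the pathway and marker lists, were planned and not run because symbols could not be matched. The 3 males per genotype limit the precision of every value.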
